A study of Glycyrrhiza uralensis with 30 samples.

Results

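Shoots and roots of *Glycyrrhiza uralensis*, a licorice grown for the sweet triterpenoids of its underground organs, were compared after 2 h of simulated drought. The 6 libraries of this comparison were chosen by their sample descriptions, out of 30 in the series: 3 of aboveground parts (stems and leaves, called shoots here) and 3 of underground parts (roots), all exposed for 2 h to polyethylene glycol 6000 (PEG) at 100 g/L in a nutrient solution. The other libraries are shoots and roots in control (labelled 0 h and distilled water) and after 6, 12 and 24 h of PEG, with 3 libraries in each of the 10 groups. The seedlings are labelled as 60 days old, no cultivar or line is given, and the labels leave unsaid whether a group's libraries are different plants. The p-values then measure only the spread between libraries, which may be technical. Libraries are named by the number in their titles (1 to 3 at 2 h, 31 to 33 in control), which shoots and roots of a time share.

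In solution, the polymer PEG reduces the water potential, so that roots take up water less easily. Roots meet such a medium directly, whereas shoots meet it through the water supply and through signals from the roots, among them the hormone abscisic acid, which closes stomata and switches on stress genes. Shoots carry the photosynthetic genes, and roots carry genes for the uptake of water and minerals and for the barriers around their vascular tissue. The files pair no identifier with a gene name, so neither part could be checked against such marker genes. Genes are therefore described as groups, and 4 genes are given by identifier with no function.

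The values are TPM, a transcript abundance per length that is scaled to the same nominal total in every library. They are shares of the RNA pool, and the sequencing depth behind them is unknown. In bulk tissue, fewer cells of a type and less RNA per cell cannot be told apart. At 2 h, 19541 to 20813 genes reached 1 TPM in the shoot libraries and 19906 to 20592 in the root libraries, and the 10 most abundant genes of a library held 6.17% to 6.87% of its summed TPM in shoots and 6.79% to 7.75% in roots.

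Library 3 of the 2 h roots stood apart from libraries 1 and 2. Shoot genes and root genes were listed from the control libraries alone, as genes with all 3 libraries of a part above all 3 of the other and a mean difference of at least 8-fold on the log2(TPM + 1) scale, which gave 1161 shoot genes and 645 root genes. The 50 most abundant of the 1161 shoot genes were, at the median, at 3.67% of the mean level of the 2 h shoots in root library 3. In root libraries 1 and 2 they were at 0.190% and 0.0325%, and in the control roots at 0.0612% to 0.176% of the level of the control shoots. In the other direction, the 50 most abundant of the 645 root genes were at 4.18%, 0.544% and 4.06% of the level of the 2 h roots in shoot libraries 1, 2 and 3, and at 0.399% to 2.79% in the control shoots. By this measure root library 3 was above the other roots of 2 h, and shoot libraries 1 and 3 were above shoot library 2. How these levels arose was not tested.

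The comparison of shoots with roots at 2 h asks what distinguished the parts under early stress. Of 25420 genes tested with limma, 4220 were higher in shoots and 5421 lower in shoots than in roots at a Benjamini-Hochberg adjusted p under 0.05, 16.6% and 21.3% of the genes tested. At least 2-fold differences were found for 3492 and 3851 of them, and at least 8-fold differences for 1133 and 690. The larger number of genes was thus on the root side, whereas the larger differences were more often on the shoot side. For 6339 genes (24.9%), the 95% confidence interval of the difference lay within 2-fold in either direction, so for these genes the parts were bounded to similar levels. The 3 shoot libraries lay above all 3 root libraries for 4009 of the 4220 genes, and below all 3 for 5006 of the 5421. Over all genes tested, 19.5% and 25.9% had no overlap in these directions.

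The median gene was 0.13 lower in shoots on the log2(TPM + 1) scale, and the median difference was -0.0086 after rescaling by median ratios. With that rescaling 5028 genes were higher and 4852 lower in shoots, and after quantile normalization 4485 were higher and 5607 lower. The excess on the root side thus held for TPM as deposited and after quantile normalization, and not after rescaling by median ratios. Leaving out any of the 6 libraries left 7777 to 9318 calls. Without root library 3, 9002 genes were called, and 8319 of the 9641 calls kept their direction.

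**Figure D1:**
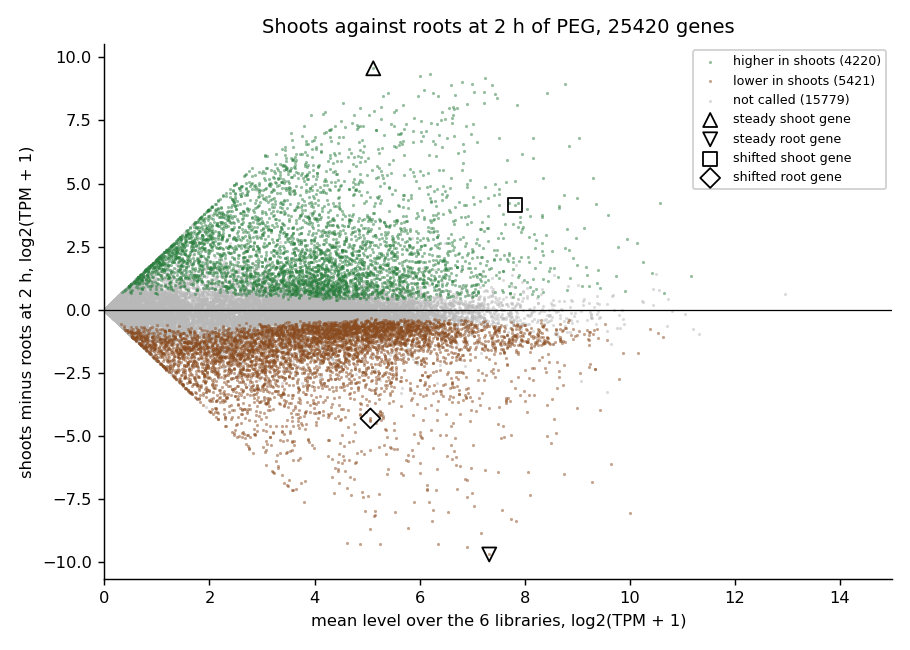
Mean level of each tested gene over the 6 libraries at 2 h (x axis, log2(TPM + 1)) and the difference of shoots minus roots (y axis, log2(TPM + 1)). Green points are the 4220 genes called higher in shoots, brown points the 5421 called lower in shoots and grey points those not called; open symbols mark the 4 genes given by identifier.

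The called genes held most of the RNA pool. The 4220 genes higher in shoots made up 46.4%, 55.1% and 50.7% of the summed TPM of shoot libraries 1, 2 and 3, and 7.67%, 6.55% and 8.20% of root libraries 1, 2 and 3. The 5421 genes lower in shoots made up 15.7%, 11.7% and 14.5% of the shoot libraries and 52.6%, 55.0% and 55.6% of the root libraries. The groups of libraries do not overlap in either sum, which follows from how the genes were called. Genes not called held 33.2% to 37.8% of the shoot pool and 36.1% to 39.7% of the root pool.

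Abundant genes were called between the parts more often than rare ones. Among 1785 genes averaging at least 100 TPM over the parts, 29.7% were higher and 38.3% lower in shoots. Among 11186 genes of 10 to 100 TPM the shares were 21.2% and 26.6%, among 8988 genes of 1 to 10 TPM 13.7% and 18.2%, and among 3461 genes under 1 TPM 2.48% and 3.50%. The size of the differences did not follow the same order, with median absolute log2 differences of 1.27, 0.694, 0.772 and 0.324 in these classes. Counting error weighs more on low values, and the pseudocount of 1 compresses their differences. Of the 100 most abundant genes of the 2 h shoots, 83 were called higher in shoots, 3 lower and 14 not called. Of the 100 most abundant genes of the 2 h roots, 71 were called lower in shoots, 4 higher and 25 not called. Ranking genes by their level in a part favours calls towards that part. The lists of 100 shared 20 genes at 2 h and 13 in control. Among shoots 57 of the 100 at 2 h were also among the 100 most abundant in control, and among roots 50 were.

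Few genes were present in every library of a part and listed at 0 throughout the other. At 1 TPM or more in all 3 shoot libraries and listed at 0 in all 3 root libraries stood 96 genes, with a median of 7.01 TPM and a highest mean of 74.6 TPM in shoots. The reverse held for 74 genes, with a median of 9.00 TPM and a highest mean of 1162 TPM in roots. The 96 genes summed to 1402, 1430 and 1314 TPM in shoot libraries 1, 2 and 3, close to each other. The 74 genes summed to 4934, 3605 and 1568 TPM in root libraries 1, 2 and 3, with library 3 the lowest. Part of this pattern was already there in control, with 26 of the 96 and 18 of the 74 meeting the same rule in the control libraries. Leaving out a library loosens the rule: without root library 3 the counts were 256 and 137. Without shoot library 3 they were 149 and 127, and without shoot library 1 the 74 became 134.

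The gene with the largest difference among the 1999 that were higher in shoots both at 2 h and in control, without overlap and with no call in the test of change, was Glyur000841s00026261. It had 794, 692 and 1581 TPM in the 2 h shoots, against 0.650, 0 and 0.220 TPM in the 2 h roots. In control it had 191, 728 and 924 TPM in shoots and 0.0400, 0.0400 and 0.0900 TPM in roots. Every shoot library was far above every root library at both times, where the rule required no overlap. The log2 difference was 9.56 at 2 h (SE 0.48, limma adjusted p = 3.63e-13) and 8.90 in control (adjusted p = 1.18e-12), and the change between them was 0.66 with a 95% interval from -0.75 to 2.07. At 6, 12 and 24 h it averaged 350 ± 136, 244 ± 150 and 1262 ± 156 TPM in shoots (SD, n = 3) and at most 0.120 TPM in any root library.

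Its counterpart in roots, the first of 1942 such genes, was Glyur001944s00035546. It had 7.15, 2.09 and 5.91 TPM in the 2 h shoots, against 6452, 6981 and 2170 TPM in the 2 h roots. In control it had 0.220, 1.15 and 20.3 TPM in shoots and 10949, 7114 and 24906 TPM in roots. Each root library was above each shoot library by a wide margin, where the rule required no overlap. Root library 3 was the lowest of the 2 h roots. The log2 difference was -9.69 at 2 h (SE 0.97, limma adjusted p = 2.37e-08) and -11.67 in control (adjusted p = 1.09e-09). The change of 1.98 between them did not pass the test (95% interval from -0.86 to 4.82, adjusted p = 0.439).

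**Figure D2:**
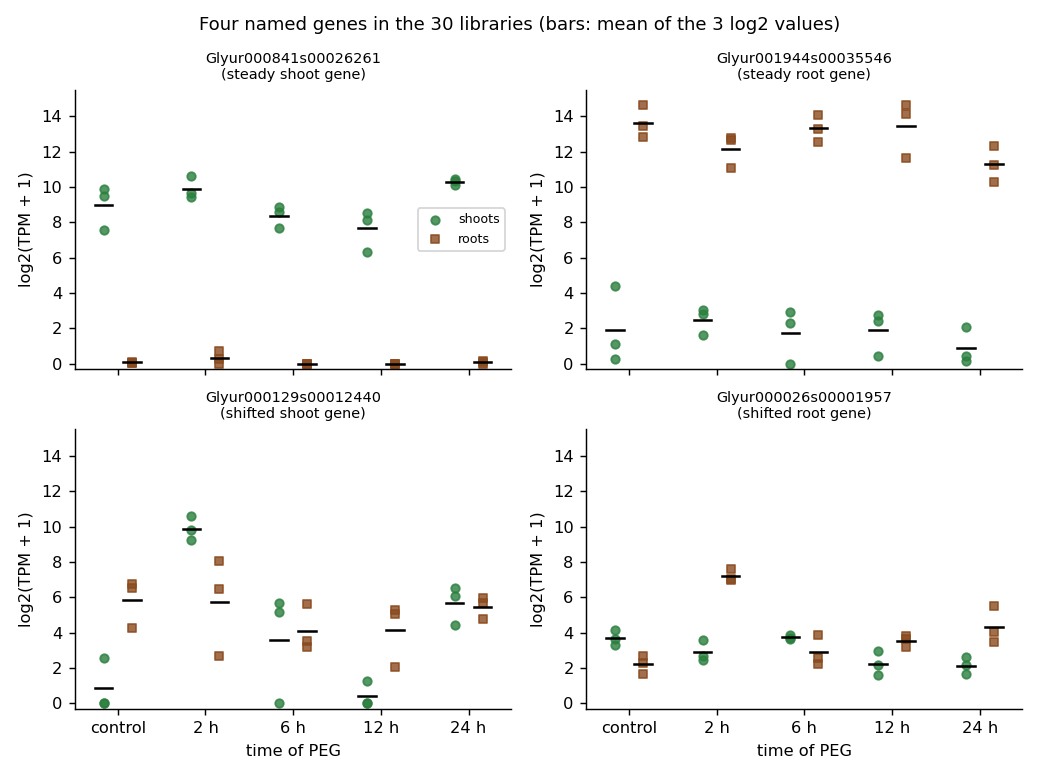
Levels of the 4 genes given by identifier (y axis, log2(TPM + 1)) in the 30 libraries, by time of PEG (x axis), with shoots as green circles, roots as brown squares and bars for the mean of the 3 log2 values. The upper genes kept their side at every time, and the lower genes lay on opposite sides in control and at 2 h.

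Whether the parts kept their identity at 2 h of PEG was read by setting the calls at 2 h beside those in control. The control was labelled 0 h and distilled water, whereas the 2 h plants were in PEG in a nutrient solution. In any change from control, PEG, the medium and the time thus cannot be told apart. The calls at 2 h and in control share no library in their differences, but they share the spread of each gene from the same fit. A gene with a small spread was thus favoured to be called at both times. In control, 4291 genes were higher and 5003 lower in shoots (16.9% and 19.7% of 25420). Higher in shoots at both times were 2920 genes, 69.2% of the list at 2 h and 68.0% of that in control. Lower in shoots at both times were 2834 genes, 52.3% of the list at 2 h and 56.6% of that in control. A gene called at one time and missing the threshold at the other is not thereby shown to have changed. Opposite calls were rare: 100 genes were higher in shoots at 2 h and lower in control, and 65 were lower in shoots at 2 h and higher in control. The correlation of log2(TPM + 1) between a shoot and a root library, over 9 pairs that share these genes, had a median of 0.680 at 2 h and 0.660 in control, against 0.911 among shoots and 0.910 among roots at 2 h.

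The lists set on the control libraries were read in the same way. Of the 1161 control shoot genes, 1067 were called higher in shoots at 2 h, 0 lower and 94 were not called. With shoot library 2 or root library 3 left out, 1 was called lower. Their median difference was 3.69 at 2 h, against 4.11 in control, where the choice of genes favours large values. Of the 645 control root genes, 535 were called lower in shoots at 2 h, 14 higher and 96 were not called. Their median difference was -3.18 at 2 h, against -3.88 in control. The median over all tested genes was -0.13 at 2 h and -0.10 in control. Lists set the same way on the 2 h libraries (1128 shoot genes and 678 root genes) and read in control gave medians of 4.16 at 2 h and 3.76 in control for shoot genes, and of -3.91 at 2 h and -3.08 in control for root genes. The smaller difference at the time not used for choosing thus appeared in both directions. Without root library 3 the medians at 2 h were 3.84 for the control shoot genes and -3.32 for the control root genes. Without shoot libraries 1 and 3, which leaves shoot library 2 alone, they were 3.94 and -3.68. Root library 3 and shoot libraries 1 and 3 had stood out by abundant genes of these same lists. Larger differences without them were thus favoured, and nothing is concluded from the values.

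The control shoot genes held less of the shoot pool at 2 h than in control. They made up 20.7%, 28.4% and 26.8% of the summed TPM in the 2 h shoots, against 34.9%, 35.0% and 29.7% in the control shoots, without overlap. A lower share outside control is favoured, since the genes were chosen as high in the control shoots. In the shoots of 6, 12 and 24 h the share was 25.8% to 42.0%, and shoot libraries 2 and 3 of 2 h lay within that range. In roots the control shoot genes made up 0.639%, 0.698% and 1.27% at 2 h and 0.627% to 0.756% in control, with root library 3 above all others. The control root genes made up 18.0%, 17.1% and 15.9% of the 2 h roots and 15.3% to 16.1% of the control roots. In shoots they made up 4.60%, 3.18% and 2.47% at 2 h, against 0.351%, 0.337% and 0.766% in control, where the choice favours low values. This share was above that of all 12 other shoot libraries in each of the 3 libraries at 2 h, since the shoots of 6, 12 and 24 h held 0.407% to 1.32%.

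**Figure D3:**
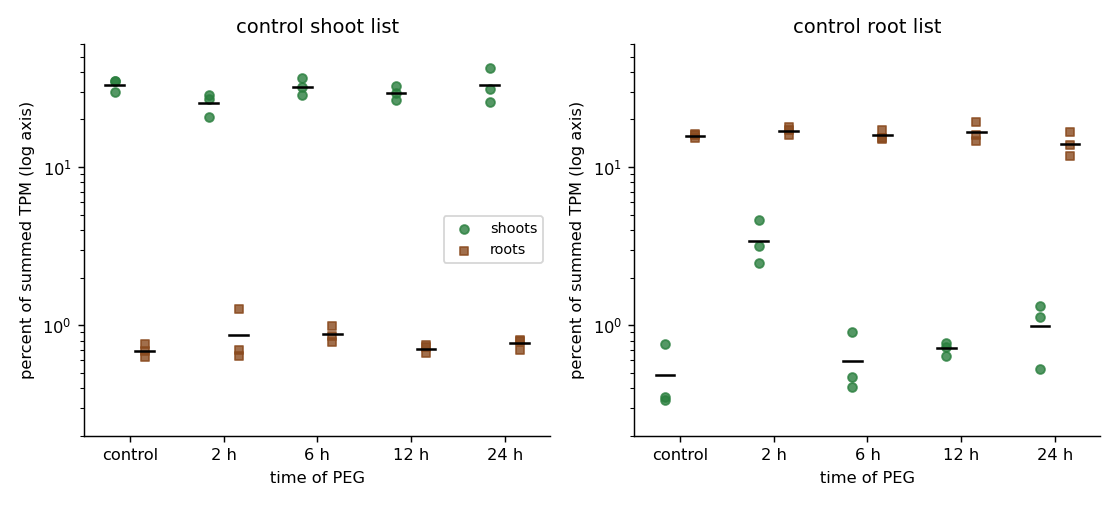
Share of the summed TPM of each library held by the 1161 control shoot genes (left) and the 645 control root genes (right), on a log axis in percent, by time of PEG, with shoots as green circles, roots as brown squares and bars for the mean of 3. The root genes held 2.47% to 4.60% of the 2 h shoots and 0.337% to 0.766% of the control shoots.

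Most of that gain came from the 14 control root genes that were called higher in shoots at 2 h. Together they summed to 27127, 19066 and 12007 TPM in shoot libraries 1, 2 and 3 of 2 h, against 94.1, 125 and 166 TPM in the control shoots. In roots they summed to 4724, 1190 and 7424 TPM at 2 h and 3981, 2045 and 3351 TPM in control, so the groups of roots overlap. The shoots of 6 and 12 h had 72.7 to 876 TPM and those of 24 h 1406 to 2357 TPM. With the 14 set aside, the root genes still held 1.21% to 1.79% of the 2 h shoots, against 0.324% to 0.749% of the control shoots.

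The 14 genes averaged from 38.7 to 3042 TPM in the 2 h shoots, with 12 at 100 TPM or more, and at most 32.2 TPM in the control shoots. In shoot library 2, where the 50 most abundant root genes stood lowest of the 2 h shoots, all 14 were above every control shoot library, and 13 were above every root library of 2 h. Both counts were favoured by the choice, since the genes were low in control shoots and shoot library 2 entered their calls. At 24 h, 7 of the 14 were called higher in shoots and 0 lower (all genes, 15.8% and 28.7%). At 12 h 0 were called higher and 8 lower (all genes, 17.6% and 17.5%), and at 6 h 0 were higher and 2 lower (all genes, 15.8% and 23.4%). These genes were singled out after their values were seen. Without root library 2, 8 control root genes were called higher in shoots at 2 h, in place of 14.

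The change of the part difference itself was tested as the shoot minus root difference at 2 h minus that in control. Of the 25420 genes, 1020 shifted towards shoots and 930 towards roots at a limma adjusted p under 0.05 (4.01% and 3.66%). Among the 1161 control shoot genes, 151 shifted towards roots (13.0%) and 35 towards shoots. Among the 645 control root genes, 91 shifted towards shoots (14.1%) and 15 towards roots. Since these lists were chosen for large differences in control, a shift against the choice is favoured. The count of 1950 depended on single libraries: it was 1204 without control shoot library 31, with 637 and 567 in the 2 directions, and 1552 without root library 3. Without library 3 of both parts it was 1089, and 989 of the 1950 calls kept their direction there.

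**Figure D4:**
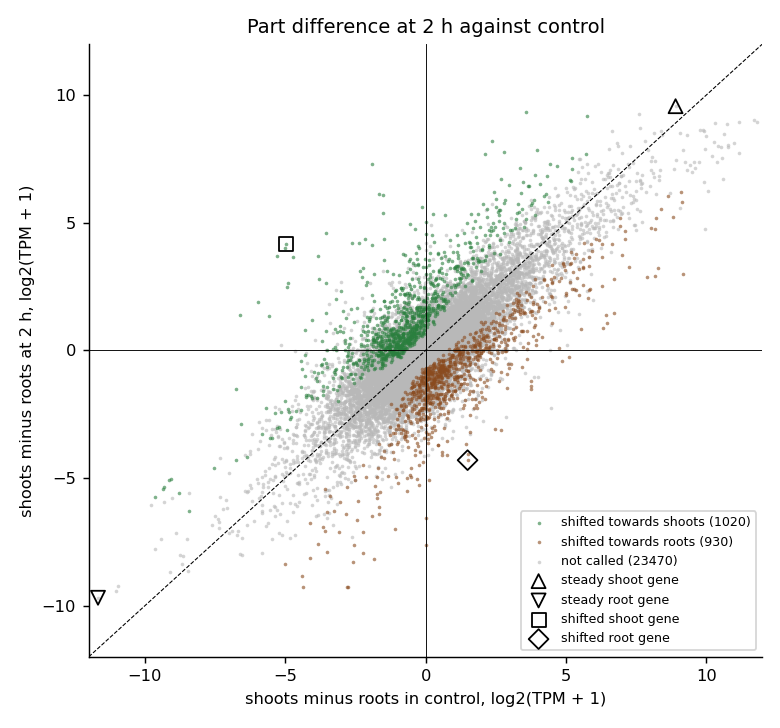
Shoot minus root difference in control (x axis) and at 2 h (y axis), both on the log2(TPM + 1) scale, for the 25420 tested genes. Green and brown points are the 1020 and 930 genes called in the test of change, the dashed line marks equal differences, and most genes lie along it.

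The levels behind these shifts are given as a description, since a gene chosen for a large difference of the changes is favoured to move oppositely in the parts. Of the 1020 genes that shifted towards shoots, 726 had a higher mean in 2 h than in control shoots and a lower mean in 2 h than in control roots (4658 of the 25420 tested), 210 were higher in both parts and 72 lower in both. Their median log2 change was 1.06 in shoots and -0.65 in roots, and the shoot change was the larger one for 589 (57.7%, with 51.1% of all genes). Of the 930 that shifted towards roots, 660 were lower in 2 h shoots and higher in 2 h roots than in the controls (5175 of the 25420 tested), 131 higher in both and 123 lower in both. Their median change was -0.90 in shoots and 0.73 in roots. By call, 325 of the 1020 were higher in shoots at 2 h with no call in control, 369 were lower in shoots in control with no call at 2 h, and 100 changed side. Of the 930, 408 were lower in shoots at 2 h with no call in control, 224 were higher in shoots in control with no call at 2 h, and 65 changed side. The 408 became 271 without control shoot library 33 and 257 without root library 2.

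Of the 83 genes that turned to the shoot side without overlap at 2 h and with at least 10 TPM, the gene with the largest change was Glyur000129s00012440, 1 of the 14 above. It had 1542, 907 and 599 TPM in the 2 h shoots, against 88.0, 5.42 and 263 TPM in the 2 h roots. In control it had 0, 5.05 and 0 TPM in shoots and 18.0, 90.3 and 108 TPM in roots. All shoots were above all roots at 2 h, as the rule required, and below all roots in control. As the largest of 83, the change is favoured to be overstated and its adjusted p to be small. The log2 difference was 4.15 at 2 h (SE 1.30, limma adjusted p = 0.0138) and -4.98 in control (adjusted p = 0.00386), a change of 9.13 (SE 1.84, adjusted p = 0.00318). The roots of 2 h were uneven, and without root library 2 the difference at 2 h was 2.62 (adjusted p = 0.133). With a pseudocount of 0.1 the call at 2 h was lost as well. The alternatives gave adjusted p of 0.00435 to 0.133 for this difference. The test of change was passed under every alternative run, with adjusted p from 3.25e-04 to 0.0171. At 6, 12 and 24 h the gene averaged 28.3 ± 25.6, 0.463 ± 0.803 and 60.3 ± 36.3 TPM in shoots and 22.4 ± 22.3, 24.6 ± 18.7 and 46.0 ± 17.6 TPM in roots (SD, n = 3).

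Among 50 such genes on the root side, the largest change was that of Glyur000026s00001957. It had 4.53, 11.0 and 5.43 TPM in the 2 h shoots, against 130, 128 and 192 TPM in the 2 h roots. In control it had 11.4, 17.0 and 8.85 TPM in shoots and 3.86, 5.31 and 2.20 TPM in roots. The roots of 2 h were far above all other libraries of this gene, and in control the shoots were above the roots. The rule required no overlap at 2 h. As the largest of 50, the change is favoured to be overstated and its adjusted p to be small. The log2 difference was -4.30 at 2 h (SE 0.47, limma adjusted p = 8.83e-08) and 1.5 in control (adjusted p = 0.0142), a change of -5.79 (SE 0.66, adjusted p = 1.25e-05). The call in control was lost without control shoot library 32 or control root library 33 (adjusted p = 0.0715 and 0.0727; from 0.00618 to 0.0727 over all alternatives), while the calls at 2 h and of the change were kept under every alternative run. At 6, 12 and 24 h it averaged 12.4 ± 1.17, 4.15 ± 2.44 and 3.56 ± 1.48 TPM in shoots and 7.43 ± 5.29, 10.9 ± 2.65 and 23.2 ± 18.4 TPM in roots (SD, n = 3).

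The genes that changed side at 2 h were read in the libraries of 6, 12 and 24 h. These libraries did not enter the differences that chose the genes. They did enter the filter and the spread that the fit shared over all groups. The 100 genes that turned to shoots had median levels of 74.5 TPM in shoots and 37.3 TPM in roots at 2 h, and of 12.6 TPM in shoots and 43.5 TPM in roots in control. At 6 h 0 of them were called higher in shoots and 41 lower, and at 12 h 0 and 43, with 15.8% and 23.4% of all genes at 6 h and 17.6% and 17.5% at 12 h. At 24 h 40 were higher in shoots and 2 lower, with 15.8% and 28.7% of all genes. Their median differences were -0.63, -0.59 and 0.50 at 6, 12 and 24 h, and those of all genes -0.19, -0.04 and -0.32. As a group the genes were thus on the root side at 6 and 12 h and on the shoot side again at 24 h.

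The 65 genes that turned to roots had median levels of 9.24 TPM in shoots and 29.1 TPM in roots at 2 h, and of 25.8 TPM in shoots and 12.6 TPM in roots in control. They were called higher in shoots in 25 cases and lower in 2 at 6 h, and in 23 and 4 at 12 h. At 24 h 4 were higher and 28 lower, with 15.8% and 28.7% of all genes. Their median differences were 0.49, 0.48 and -0.54 at 6, 12 and 24 h, and that of all genes at 24 h was -0.32. After rescaling by median ratios the 24 h median of the 65 genes was -0.15, with 10 higher and 18 lower. That of the 100 genes was 0.90, with 57 higher and 1 lower. Over 25320 tested genes with this rescaling, 5419 were higher and 4664 lower at 24 h, with a median of -0.0066. The size of the return at 24 h thus depends on the scaling. The genes that were called at 2 h and not in control were read at the same times. Of the 325 that gained a call in shoots, 57 were called higher in shoots and 25 lower at 6 h, 42 and 37 at 12 h, and 189 and 1 at 24 h. Of the 408 that gained a call in roots, 14 were higher in shoots and 123 lower at 6 h, 15 and 93 at 12 h, and 2 and 280 at 24 h. Of all genes, 15.8% were higher and 23.4% lower at 6 h, 17.6% and 17.5% at 12 h, and 15.8% and 28.7% at 24 h. The median differences at 6 and 12 h were 0.11 and 0.02 for the 325 and -0.41 and -0.20 for the 408. Those of all genes were -0.19 and -0.04. In TPM as deposited, the 408 were thus on the root side, unlike the 65, and so was the median over all genes. The 325 and the 408 were not read after rescaling. The 65 became 43 without shoot library 3 and 41 without control shoot library 31.

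**Figure D5:**
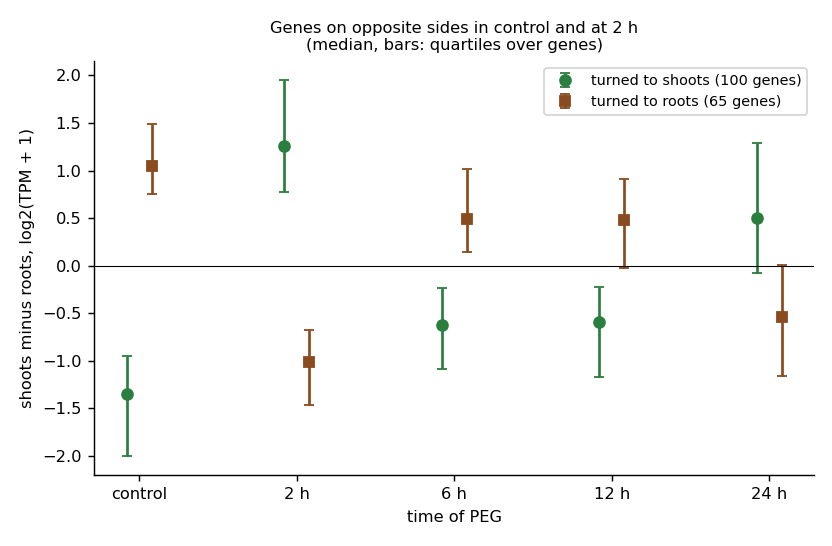
Shoot minus root difference on the log2(TPM + 1) scale, by time of PEG, of the 100 genes that turned to shoots (green circles) and the 65 that turned to roots (brown squares) between control and 2 h; points are medians over genes and bars reach the quartiles. The differences in control and at 2 h chose the genes, with a spread shared over all groups. At 24 h the medians of 0.50 and -0.54 lay on the side of 2 h, and the median of all genes was -0.32.

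Between the parts, 9294 genes were called in control (36.6%), 9641 after 2 h (37.9%), 9964 after 6 h (39.2%), 8939 after 12 h (35.2%) and 11290 after 24 h (44.4%). The part difference at 2 h differed from that at 24 h for 168 genes (0.661%) by limma, 89 shifted towards shoots (0.35%) and 79 towards roots (0.311%) at 2 h. After rescaling by median ratios these were 37 and 105, and after quantile normalization 58 and 92, so the balance between the directions rests on the scaling. The total was 33 without root library 3 of 2 h, 49 or 91 without shoot library 1 or 2 of 2 h, 70 without shoot library 11 of 24 h, and 52 or 65 without root library 10 or 11 of 24 h. A gene that misses this test is not shown to have the same part difference at both times. For 4457 genes (17.5%) the 95% interval of the change from 24 h to 2 h lay within 2-fold on the log2(TPM + 1) scale. The same bound for the change from control was met by 3816 genes. Genes with low values can meet it even where their ratios changed.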

How the data were processed

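The authors deposited, per the file headers, 1 table per library with TPM for the same 34445 genes. Tools listed in the submitters' processing notes are RSEM, StringTie, HISAT2, fastp, edgeR and DESeq2, with neither version nor role. For genome build and annotation, names were not given in the sources used here. Listed genes summed to 928931 to 972586 TPM in a library, 4615 genes were at 0 in every library, and no libraries held identical values. How reads of near-identical gene copies were assigned is not stated, so single genes are uncertain.

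From these, log2(TPM + 1) was tested with limma 3.58.1 in R 4.3.3 (mean-variance trend, 2-sided, Benjamini-Hochberg over all genes tested, threshold 0.05) in 1 fit of all 30 libraries and 10 groups. Genes were kept at 1 TPM or more in at least 3 libraries. Differences on this scale understate the changes of genes with low values. Plots were made in matplotlib 3.10.9. The fit was tested on simulated data with 200 genes changed. The simulated libraries were drawn independently, unlike the same-numbered libraries described below, so the simulation does not check the fit for such pairing.

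The 4 genes given by identifier followed a rule: steady (called on the same side at 2 h and in control, no call in the test of change, no overlap in control, largest difference at 2 h) or shifted (called on opposite sides, called in the test of change, largest change), all without overlap at 2 h and averaging 10 TPM or more in the higher part at 2 h. Planned lists of named pathways and marker genes could not be applied, since no identifier has a name. Comparisons, lists and genes were chosen with earlier results of these data known. Same-numbered shoot and root libraries deviated together from their group means (correlations of 0.188 to 0.345 over the 6 pairs of 2 h and control), so the numbers were taken to pair the samples, from the data and not from the labels. The fit behind the reported counts and p-values did not use this pairing, which entered only the replicate block. Alternatives were other filters, pseudocounts, scalings and library weights, a fit of the compared libraries alone, a replicate block on the library number, and leaving out libraries. Leaving single 2 h libraries out of the list values was added with the data in view.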

Additional observations from a re-analysis of the deposited data

Results flagged for a closer look

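For a minority of genes, the difference between shoots and roots was called as changed between control and 2 h. It shifted towards shoots for 1020 genes (4.01%) and towards roots for 930 genes (3.66%) in limma's test of the change. The difference at 2 h and the difference at 24 h were unlike for 168 genes (0.661%) in the same kind of test. With only the libraries compared, 1045 genes were called in the change from control and 3 between 2 h and 24 h. Among the genes given by identifier, the shoot minus root difference at 2 h minus that in control was 9.13 on the log2(TPM + 1) scale for Glyur000129s00012440 and -5.79 for Glyur000026s00001957.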

How the results depend on the processing

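Without read counts, the depth behind low TPM values is unknown. For the comparison of shoots with roots at 2 h and in control, every alternative run left the counts within 1.5 times. In the replicate block on the library number, 10244 genes were called at 2 h, 9290 of them among the 9641, and 2261 in the test of change from control; the block moved no count by over 1.5 times and ended no call of a gene given by identifier. At 24 h, 7454 genes were called between the parts with only the libraries compared.

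The tests of change moved with several settings. For the change from control, the 1950 genes (1020 towards shoots, 930 towards roots) became 3661 (1758 and 1903) with a quality weight per library, 1045 (534 and 511) with only the libraries compared, 1089 (593 and 496) without library 3 of both 2 h groups, and 1204 to 2199 (637 to 1087 and 567 to 1112) leaving out 1 library. The 168 genes unlike at 2 h and 24 h became 110, 3 and 81 under those settings and 33 to 226 leaving out 1 library. The 100 genes that turned to shoots became 167 with weights and 56 with only the libraries compared. The 65 that turned to roots became 149, 39 and 37 under the same 3 settings, and 41 to 78 leaving out 1 library. The 325 genes gained in shoots became 164 with only the libraries compared and 187 without library 3 of both groups; the 408 gained in roots became 772 with weights, 213 and 210 under those settings, and 257 to 535 leaving out 1 library.

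With a list limit of 2 on the log2 scale, the control lists held 2085 shoot and 1468 root genes. Of these, 1747 and 25 were called higher in shoots at 2 h and 4 and 1100 lower, with medians of 2.82 and -2.31. With a pseudocount of 0.1 they held 1914 and 1221 genes, 3 and 880 called lower, with a shoot median of 4.02. With lists set at 2 h and read in control, 10 shoot genes were called lower and 3 root genes higher; after median-ratio rescaling 1 shoot gene was called lower at 2 h. Leaving out a 2 h library gave 0 to 1 lower calls among shoot genes and 8 to 15 higher calls among root genes. At 5 TPM or more, 31 genes in place of 96 and 36 in place of 74 were listed at 0 in the other part; leaving out a library gave 127 to 256 and 104 to 137. The change of Glyur000841s00026261 from control was -0.0392 to 1.09 leaving out 1 library, with -0.0392 without control shoot library 31 and no call in any of them. The causes were not tested.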
